A study of Homo sapiens with 24 samples.

Results

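The genes described here are 4 ribosomal protein genes, RPL22, RPS27, RPL39 and RPL26, and the paralogue of each that carries its name with an added L or L1, namely RPL22L1, RPS27L, RPL39L and RPL26L1. They were listed by symbol, with earlier results of these data known, so the choice was not blind to the data. The 8 rows of the count table whose Ensembl identifiers map to these symbols were taken, out of 60668 rows. All 8 were among the 22158 genes with enough counts to be tested. RNA was sequenced from 24 libraries of MCF-10A, an immortalised and non-tumorigenic human mammary epithelial line, grown as 3-dimensional cultures on a basement membrane gel. The 4 parental groups were MCF-10A without the transgene, and the 4 MYC-ER groups were MCF-10A with MYC-ER, in which the transcription factor MYC is joined to a ligand-binding portion of the oestrogen receptor and becomes active when 4-hydroxytamoxifen (4-OHT) is bound. In each line, cultures received 1 µM 4-OHT for 8, 24 or 48 h, or none (0 h), with 3 replicates per group, and every culture was collected on day 5. The promoter that drives the transgene, and whether the line is a clone, are not given in the sources used here, and no vehicle is named for the 0 h cultures.

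Ribosomal proteins are built with ribosomal RNA into the small (RPS) and large (RPL) subunits, and their genes are known to be transcribed together as a highly expressed group. A few have a second, usually much less abundant copy elsewhere in the genome whose protein can take the same place in the ribosome. MYC is known as a driver of ribosome production in many cell types. RPL22 protein is known to lower the RNA of its own paralogue RPL22L1, RPS27L is known as a target gene of p53, RPL39L is best known from male germ cells, and RPL26 protein is known to bind p53 messenger RNA.

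Library totals ran from 136860029 to 182438505 counts, and 3 counts in the smallest library corresponded to 0.0219 CPM, the unit used for levels, in which the library totals have been made equal. The row for MYC lay between 244 and 797 CPM in the MYC-ER libraries and between 443 and 599 CPM in the parental ones, and at 0 h it was lower in MYC-ER (387 ± 8.02 CPM) than in parental libraries (532 ± 68.7 CPM, SD, n = 3). The row for ESR1, the oestrogen receptor gene, lay between 0 and 0.557 CPM in MYC-ER and between 0.115 and 0.351 CPM in parental libraries. Whether RNA of the transgene is counted in either row is not given in the sources used here, so neither row checks the labels. All 8 mammary epithelial markers were detected, with KRT5 between 6760 and 14100 CPM. Of the endothelial, leukocyte and adipocyte markers, CDH5, CD3E, ADIPOQ and LEP had 0 counts in every library and PTPRC at most 2. Others of those lists had counts in every library. CD68 was at 4.2 to 23.6 CPM, CD14 at 2.87 to 9.03, PECAM1 at 0.0464 to 2.32 and PLIN1 at 0.0811 to 1.71. The summed level of 7 fibroblast markers was 370 to 377 CPM in the MYC-ER 0 h libraries and 77.3 to 133 CPM in all others, led by COL1A1 and DCN, with the fibroblast collagen COL3A1 at 0 to 2 counts. The summed level of the epithelial markers was 10800 to 17400 CPM in MYC-ER and 18900 to 30600 CPM in parental libraries. Both sums therefore moved with some of the groups compared below, and their part in the results was not tested.

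The coding sequences show how close the members of a pair are, and which pairs reads of 150 bases could confuse. The RPL39 pair is the closest by base, with 8 of 156 coding bases differing. The pair on the small subunit, RPS27 and RPS27L, differs at 56 of 255 bases, yet only 3 of 84 codons encode another residue. In the lines below, from GENCODE release 29 (GRCh38) and written 5′ to 3′, capitals mark the bases that differ within the pair.
RPL39: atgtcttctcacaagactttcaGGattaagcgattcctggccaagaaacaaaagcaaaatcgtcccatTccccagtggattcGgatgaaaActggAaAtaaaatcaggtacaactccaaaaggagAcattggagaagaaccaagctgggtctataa
RPL39L: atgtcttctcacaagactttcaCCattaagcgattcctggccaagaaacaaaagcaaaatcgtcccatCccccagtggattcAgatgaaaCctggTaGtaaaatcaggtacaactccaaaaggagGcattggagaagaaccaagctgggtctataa
RPS27: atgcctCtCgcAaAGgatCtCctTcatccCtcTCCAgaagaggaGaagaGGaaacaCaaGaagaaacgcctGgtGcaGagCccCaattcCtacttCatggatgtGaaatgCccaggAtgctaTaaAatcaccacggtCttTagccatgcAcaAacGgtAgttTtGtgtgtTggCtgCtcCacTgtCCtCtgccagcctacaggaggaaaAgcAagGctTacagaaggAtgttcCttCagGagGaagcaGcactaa
RPS27L: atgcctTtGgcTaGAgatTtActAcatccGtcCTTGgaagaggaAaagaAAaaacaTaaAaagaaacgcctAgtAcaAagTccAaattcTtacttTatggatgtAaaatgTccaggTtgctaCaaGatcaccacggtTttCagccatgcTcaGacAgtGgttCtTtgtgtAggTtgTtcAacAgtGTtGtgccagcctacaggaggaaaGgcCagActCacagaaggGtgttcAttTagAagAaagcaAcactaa

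The RPL26 pair differed at 69 of 438 bases and in 2 of 145 codons by residue, and the RPL22 pair was the most distant, with 65.4% of aligned bases identical and 32 codons encoding another residue. No stretch of 100 or 150 bases of a transcript occurred in the other member of its pair. Stretches of 150 bases were shared with other genes, among them pseudogenes such as RPL22P1, RPL39P3 and RPL26P19, for 41.0% of RPS27, 27.6% of RPL26, 11.8% of RPL22, 5.6% of RPL26L1 and 2.8% of RPL39, and for none of RPL22L1, RPS27L and RPL39L. How reads matching several genes were counted is not given in the sources used here, so the levels of those 5 genes are uncertain to that extent. The named pseudogene rows held 4.24 to 5.49% of the counts of RPL22 and its pseudogenes together, 3.95 to 4.72% for RPL39, 1.28 to 2.16% for RPS27 and 0.498 to 1.28% for RPL26.

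In the RefSeq gene table (GRCh38.p14), RPL22 lies at chr1:6185020-6199595, RPL22L1 at chr3:170864875-170870195, RPS27 at chr1:153990762-153992155 and RPS27L at chr15:63148249-63157477. RPL39 lies at chrX:119786504-119791630, RPL39L at chr3:187120948-187139496, RPL26 at chr17:8377516-8383193 and RPL26L1 at chr5:172954094-172969771. Each member lies on another chromosome than its paralogue, and the coding sequence of each is read from a transcript of 3 or 4 exons.

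**Figure D1:**
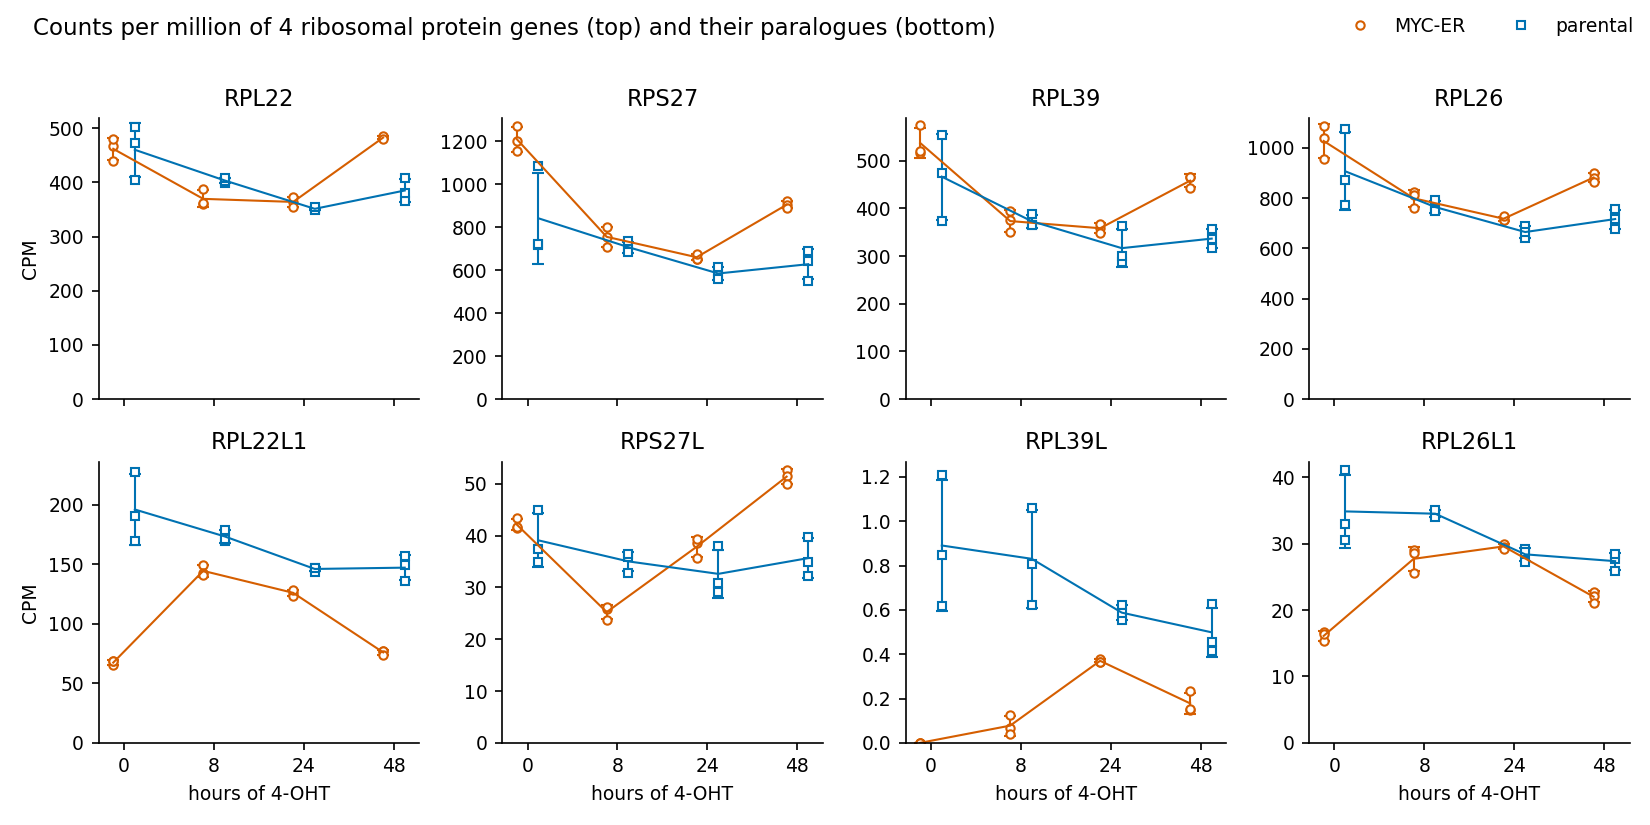
CPM (y axis, linear, from 0) against hours of 4-OHT (x axis) for the canonical genes (top row) and their paralogues (bottom row), with each library as a point, lines through the group means and bars of 1 SD (n = 3), MYC-ER as circles and parental as squares. RPL22L1, RPL39L and RPL26L1 start lowest at 0 h in MYC-ER and are higher at 8 and 24 h, while the 4 canonical genes are lower at 8 and 24 h than at 0 h.

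In the comparison of 8 h with 0 h in MYC-ER cells, which asks what followed 4-OHT, the 4 canonical genes fell and 3 of the 4 paralogues rose. All 8 members passed the test (edgeR quasi-likelihood test, Benjamini-Hochberg adjusted p under 0.05), against 67.6% of all genes tested. Of the members 3 were higher and 5 lower, beside 32.2% of all genes higher and 35.4% lower. In every member the 3 libraries at 8 h lay outside the range of the 3 at 0 h, which was so for 73.5% of all genes. These shares are high across the whole table, so the directions and sizes are described below. In bulk RNA, fewer cells of a type and less RNA per cell cannot be told apart. CPM are also relative to the other RNA of a library, so a rise or fall here is a relative one. The amount of RNA per cell was not tested.

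RPS27, a small-subunit protein with a zinc finger, had the largest change among the canonical members. It stood at 1157, 1204 and 1272 CPM in the MYC-ER 0 h libraries, at 804, 710 and 754 CPM at 8 h, at 654, 653 and 676 CPM at 24 h and at 924, 902 and 889 CPM at 48 h. The groups at 0, 8, 24 and 48 h did not overlap, with 24 h lowest and 48 h between 0 h and 8 h. Against 0 h, RPS27 fell at 8 h by 0.68 on the log2 scale (SE 0.11, adjusted p = 1.36e-05), at 24 h by 0.87 (SE 0.11) and at 48 h by 0.42 (SE 0.11, adjusted p = 0.00383).

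RPL22, a large-subunit protein that also binds RNA outside the ribosome, was at 439.6, 466 and 480 CPM at 0 h and at 388, 359.5 and 362 CPM at 8 h in MYC-ER. It was at 363, 355 and 373 CPM at 24 h and at 484, 485 and 479 CPM at 48 h, so the 48 h libraries overlapped those at 0 h and lay above those at 8 and 24 h. At 8 h it fell by 0.32 (SE 0.06, adjusted p = 8.29e-05) and at 24 h by 0.34 (SE 0.06, adjusted p = 4.39e-05), and its log2 change at 48 h was 0.06 (SE 0.06, adjusted p = 0.44), or 0.23 (adjusted p = 0.000576) when libraries were scaled by their totals alone. RPL39, the smallest of these proteins and part of the lining of the exit tunnel, was at 516 to 574 CPM at 0 h, 350 to 395 CPM at 8 h, 348 to 368 CPM at 24 h and 442.5 to 466 CPM at 48 h. Its log2 change was -0.52 at 8 h (SE 0.10, adjusted p = 0.000101), -0.58 at 24 h (SE 0.10) and, without passing the test, -0.23 at 48 h (SE 0.10, adjusted p = 0.0728), a value that passed under 3 other settings. RPL26 was at 954 to 1087 CPM at 0 h, 762 to 823 CPM at 8 h, 712 to 727 CPM at 24 h and 866 to 898 CPM at 48 h. It fell by 0.36 (SE 0.08, adjusted p = 0.000486), by 0.52 (SE 0.08, adjusted p = 9.7e-06) and by 0.22 (SE 0.08, adjusted p = 0.0322) at the 3 times. The last of these calls was lost when any of 5 of the 6 libraries compared was left out (adjusted p up to 0.131), and under 4 other settings (adjusted p up to 0.513).

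The canonical members moved with the rest of their family. Of 76 other canonical ribosomal protein genes, all tested, 69 fell and 0 rose in MYC-ER at 8 h, with a median log2 change of -0.39 beside -0.10 over all genes tested. At 24 h, 56 fell and 0 rose (median -0.35, all genes -0.02), and at 48 h 6 fell and 2 rose (median -0.05, all genes 0.03). Under each other setting and without each library the median stayed below 0 at 8 and 24 h, with 61 to 73 and 49 to 68 genes falling. At 48 h the balance depended on the scaling: 23 rose and 3 fell (median 0.11) with library totals alone, and 6 rose and 22 fell with trends in GC content and length removed. From 24 to 48 h 64 of the 76 rose and 0 fell (median 0.30). The members' own falls at 8 h, from 0.32 to 0.68, lay within the family's range, which ran from -0.82 for RPLP0, a protein of the ribosomal stalk, to -0.0021.

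The parental cells, which received the same 4-OHT without the transgene, also had lower canonical ribosomal protein RNA. RPS27 was at 717, 723 and 1087 CPM in the parental 0 h libraries, and at 701, 687 and 736 CPM at 8 h, with replicate 3 at 0 h standing far above its group. The same library was the highest of its group for RPL22 (473, 405 and 503 CPM at 0 h), RPL39 (474, 372.5 and 553 CPM) and RPL26 (874, 771 and 1075 CPM). At 8 h RPL22, RPL39 and RPL26 passed the test, lower by 0.19 (SE 0.06), 0.32 (SE 0.10) and 0.25 (SE 0.08) in log2, where 31% of all genes were called and 16% called lower. No member's groups were separated, which they were for 33.9% of all genes. Without replicate 3 at 0 h, without replicate 1 or without replicate 2 at 8 h, 0 members passed at 8 h, and without replicate 2 at 0 h 5 passed. Fitted on the 6 libraries compared alone, 0 passed. At 24 h all 4 canonical members fell, by 0.39 to 0.56, among 7 of the 8 members called lower (42.9% of all genes were called, 21.7% lower), and at 48 h by 0.26 to 0.47, again with 7 members lower (40.5% of all genes called, 20.1% lower). The calls of RPS27 were lost with trends in GC content and length removed, at -0.19 (adjusted p = 0.189) for 24 h and -0.14 (adjusted p = 0.351) for 48 h, and at 48 h also without replicate 3 at 0 h (-0.17, adjusted p = 0.0778). Fitted on the 6 libraries compared alone, 0 members passed at 48 h. Among the 76 other canonical genes 65, 76 and 69 fell and 0 rose at 8, 24 and 48 h, with median log2 changes of -0.33, -0.51 and -0.36. Without replicate 3 at 0 h 29, 73 and 35 fell (medians -0.19, -0.35 and -0.19). With GC and length trends removed 53, 54 and 32 fell, with 4 higher at 48 h. Fitted on the libraries compared alone, 0, 50 and 11 fell. Under every setting and without each library the medians stayed below 0.

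**Figure D2:**
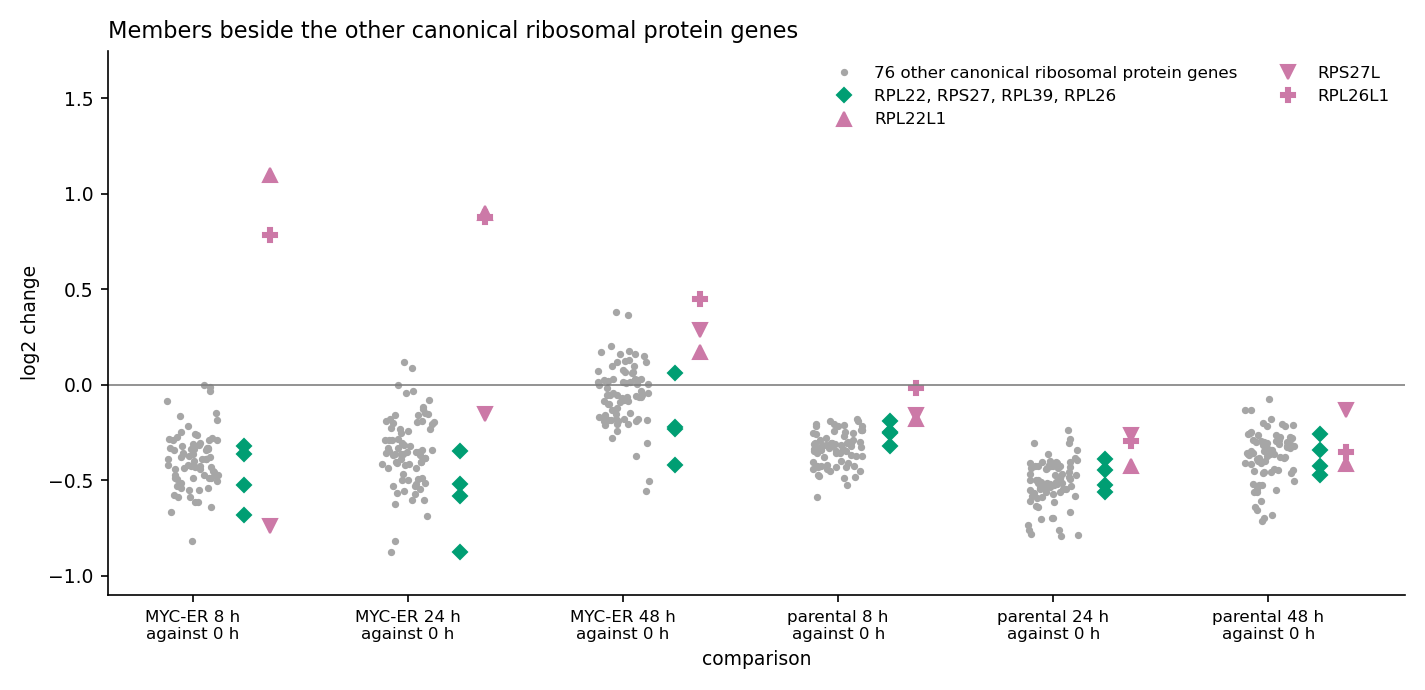
Log2 change (y axis) in each comparison with 0 h (x axis) for 76 other canonical ribosomal protein genes (grey points, spread sideways for visibility), the 4 canonical members (diamonds) and the paralogues RPL22L1, RPS27L and RPL26L1. RPL39L is left out because its MYC-ER 0 h libraries had 0 counts. In MYC-ER at 8 and 24 h, RPL22L1 and RPL26L1 stand above all 76 genes. In the parental line they lie below 0 at 24 and 48 h, and at 8 h neither passed the test, with RPL26L1 at -0.01.

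RPL22L1, the paralogue of RPL22, rose at 8 and 24 h in MYC-ER and was back near its starting level at 48 h. It was at 65.2, 68.3 and 68.7 CPM at 0 h, at 150, 143 and 141 CPM at 8 h, at 126, 123.5 and 129 CPM at 24 h and at 77.6, 76.9 and 73.6 CPM at 48 h. No library of 1 time overlapped another time, and 8 h was highest. At 8 h the log2 change was 1.10 (SE 0.07, adjusted p = 1.22e-11) and at 24 h 0.90 (SE 0.07, adjusted p = 4.12e-10). At 48 h it was 0.17 (SE 0.07, adjusted p = 0.0586), a value that passed the test under 5 other settings. From 24 to 48 h it fell by 0.73 (SE 0.07, adjusted p = 1.91e-08).

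In the parental line RPL22L1 was at 191, 169.5 and 228 CPM at 0 h, 169, 172 and 179 CPM at 8 h, 147, 144 and 147 CPM at 24 h and 136, 149 and 157 CPM at 48 h. The level was highest at 0 h, and the direction was opposite to that in MYC-ER: at 24 h it fell by 0.42 (SE 0.07, adjusted p = 8.46e-05) and at 48 h by 0.41 (SE 0.07), and its change at 8 h was -0.18 (SE 0.07, adjusted p = 0.0682). The difference between the lines was tested as the line by time interaction, which is the change in MYC-ER with the change in parental cells subtracted. On the log2 scale the value at 8 h was 1.28 (SE 0.10, adjusted p = 6.39e-10), that at 24 h 1.33 (SE 0.10, adjusted p = 3.86e-10) and that at 48 h 0.59 (SE 0.10, adjusted p = 8.12e-05).

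RPL26L1, the paralogue of RPL26, followed a similar course at a lower level. In MYC-ER it was at 16.6, 15.3 and 16.4 CPM at 0 h, 29.04, 25.6 and 28.5 CPM at 8 h, 29.9, 29.6 and 29.3 CPM at 24 h and 22.8, 22.2 and 21.1 CPM at 48 h. All treated libraries lay above all 0 h libraries, and those at 48 h lay between 0 h and 8 h. Against 0 h it rose by 0.78 after 8 h (SE 0.08, adjusted p = 9.91e-09), by 0.88 after 24 h (SE 0.08, adjusted p = 1.95e-09) and by 0.45 after 48 h (SE 0.08, adjusted p = 6e-05), and it fell by 0.43 (SE 0.08, adjusted p = 7.03e-05) from 24 to 48 h. Its change from 8 to 24 h did not pass (0.09, SE 0.08, adjusted p = 0.317).

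In parental cells RPL26L1 was at 33.0, 30.5 and 41.0 CPM at 0 h and at 34.5, 34.0 and 35.1 CPM at 8 h, a change of -0.01 (SE 0.08, adjusted p = 0.923). It was at 27.3, 29.2 and 28.7 CPM at 24 h and at 25.9, 27.7 and 28.5 CPM at 48 h, below every 0 h library at both times. It fell by 0.30 (SE 0.08, adjusted p = 0.00349) and by 0.35 (SE 0.08, adjusted p = 0.000998). The former value was -0.14 (adjusted p = 0.0615) without replicate 3 at 0 h, -0.12 (adjusted p = 0.0995) with GC and length trends removed and -0.29 (adjusted p = 0.103) on only the groups compared. Its interaction at 8 h was 0.80 (SE 0.11, adjusted p = 1.97e-06), that at 24 h 1.17 (SE 0.11, adjusted p = 7.48e-09) and that at 48 h 0.80 (SE 0.11, adjusted p = 4.66e-06).

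RPL39L, the paralogue of RPL39, had 0 counts in each of the 3 MYC-ER 0 h libraries and was found in every library of the other 7 groups. In MYC-ER it had 9, 18 and 6 counts at 8 h, 65, 58 and 57 counts at 24 h and 26, 23 and 39 counts at 48 h. The group means were 0.0776, 0.37 and 0.178 CPM (SD 0.0452, 0.00728 and 0.0471, n = 3), in the order of the times. Each is given against the floor that a count of 0 allows, 3 counts in each library or 0.0173 CPM on average. The group mean was at least 4.48-fold higher at 8 h, at least 21.4-fold higher at 24 h and at least 10.3-fold higher at 48 h. These bounds leave out the spread of the treated libraries, the lowest of which at 8 h was at 0.0400 CPM. The test passed at each time (edgeR, adjusted p = 6.18e-07, 6.44e-10 and 3.32e-08), with a size that cannot be fitted against 0. The treated groups can be compared in full: RPL39L rose by 2.25 (SE 0.35, adjusted p = 1.96e-05) in log2 from 8 to 24 h and fell by 1.05 (SE 0.32, adjusted p = 0.0097) from 24 to 48 h.

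The parental libraries held more RPL39L throughout, with 138, 108 and 203 counts at 0 h, 163, 98 and 131 at 8 h, 92, 93 and 94 at 24 h and 114, 65 and 66 at 48 h. In CPM the 0 h libraries (0.617 to 1.207) overlapped those at 8 h (0.6206 to 1.061), 24 h (0.5546 to 0.6215) and 48 h (0.4138 to 0.6249). The log2 change after 8 h was -0.10 (SE 0.30, adjusted p = 0.849), after 24 h -0.60 (SE 0.30, adjusted p = 0.122) and after 48 h -0.83 (SE 0.30, adjusted p = 0.0342); the last call was lost when any of 4 of the 6 libraries compared was left out, with -0.52 (adjusted p = 0.259) without replicate 3 at 0 h, and under 6 other settings.

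RPS27L behaved unlike the other paralogues in MYC-ER. It was at 41.4, 41.7 and 43.3 CPM at 0 h, 25.8, 26.3 and 23.7 CPM at 8 h, 38.6, 35.7 and 39.3 CPM at 24 h and 52.8, 51.5 and 49.98 CPM at 48 h. The level was lowest at 8 h and highest at 48 h, with no overlap between times. At 8 h it fell by 0.74 (SE 0.09, adjusted p = 4.79e-07), its change at 24 h was -0.15 (SE 0.09, adjusted p = 0.161; -0.25, adjusted p = 0.00422, with GC and length trends removed), and at 48 h it rose by 0.29 (SE 0.09, adjusted p = 0.0168). The call at 48 h was lost without replicate 1 at 0 h (adjusted p = 0.0542) or without replicate 1 at 48 h (adjusted p = 0.056), at a log2 change of 0.27 in each case. From 8 to 24 h it rose by 0.58 (SE 0.09, adjusted p = 1.8e-05), and from 24 to 48 h by 0.44 (SE 0.09, adjusted p = 0.000409).

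In parental cells RPS27L was at 37.5, 34.9 and 44.9 CPM at 0 h, 35.9, 32.9 and 36.4 CPM at 8 h, 29.1, 38.0 and 30.8 CPM at 24 h and 39.8, 32.3 and 34.9 CPM at 48 h. The groups at the 4 times overlapped. Its change was -0.26 (SE 0.09, adjusted p = 0.0293) at 24 h, and -0.13 (adjusted p = 0.321) without replicate 3 at 0 h. That call was also lost without replicate 1 (adjusted p = 0.166) or replicate 3 (adjusted p = 0.112) at 24 h, and under 3 other settings. At 8 and 48 h it did not pass the test. Its interaction was -0.58 for 8 h (SE 0.13, adjusted p = 0.000795), 0.11 for 24 h (SE 0.13, adjusted p = 0.531) and 0.42 for 48 h (SE 0.13, adjusted p = 0.0137), the last being 0.28 (adjusted p = 0.0786) without parental replicate 3 at 0 h.

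Since RPS27L is a p53 target, a list of 20 other p53 target genes, also chosen with earlier results of these data known, is given beside it. In MYC-ER 14 of the 20 fell and 4 rose at 8 h, beside 35.4% of all genes lower and 32.2% higher. The median log2 change of the 20 was -0.95. The members that fell most were GDF15, a secreted stress cytokine, at -3.51 (SE 0.12), and DDB2, a DNA damage recognition protein, at -2.55 (SE 0.06), while the nuclease gene AEN was at 1.16 (SE 0.045) and the metabolic regulator TIGAR at 0.605 (SE 0.07). At 24 h 14 fell and 4 rose (median -0.28), beside 31.2% of all genes lower and 30.4% higher. At 48 h 3 fell and 7 rose (median 0.15), beside 20.7% of all genes lower and 23.4% higher. The largest rise at 48 h was that of BBC3, a promoter of apoptosis, at 0.90 (SE 0.11). From 24 to 48 h 14 rose and 1 fell, with 53.7% of all genes called in either direction. In parental cells 7 fell and 2 rose at 8 h, with a median of -0.11.

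**Figure D3:**
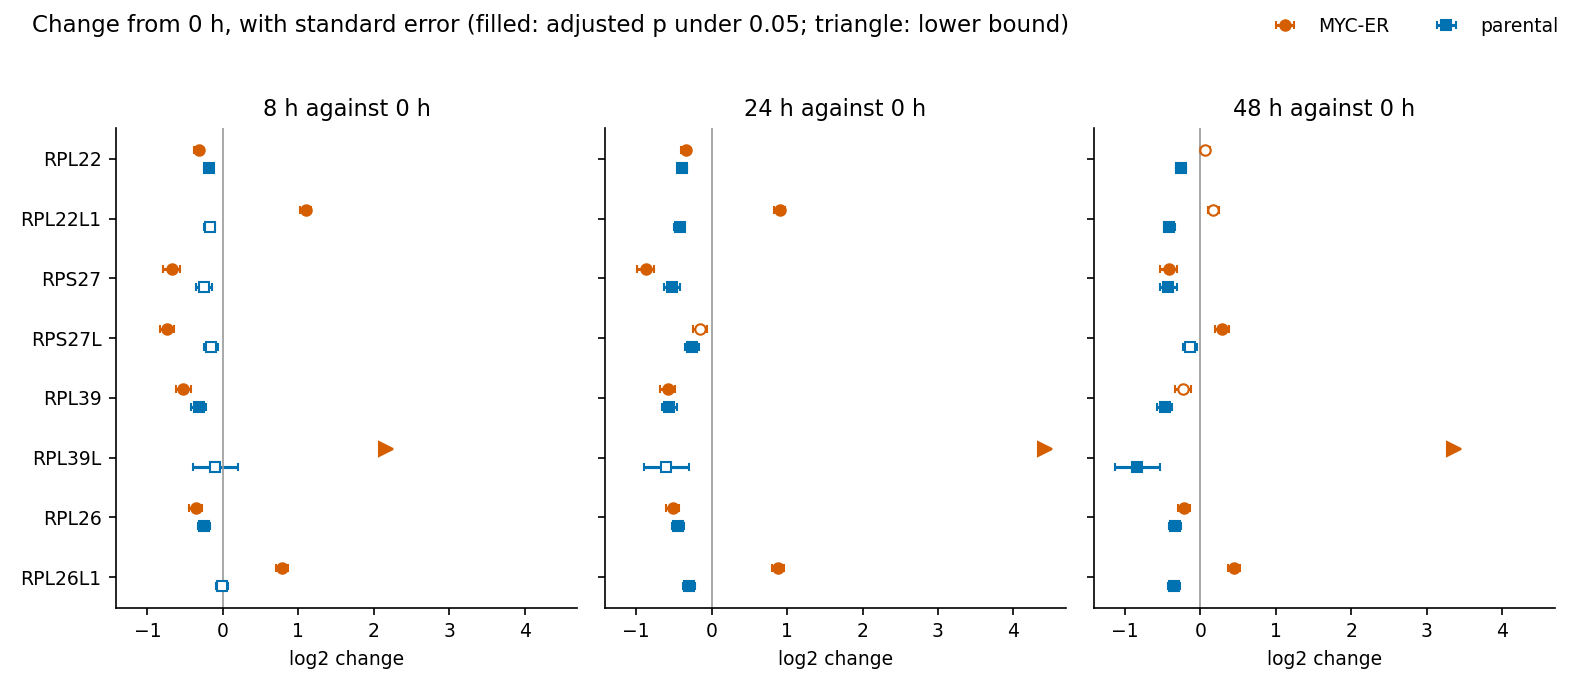
Log2 change from 0 h (x axis) with its standard error (bars) for the 8 members (y axis) at 8, 24 and 48 h of 4-OHT, with MYC-ER as circles and parental as squares, filled where the adjusted p was under 0.05. The triangles give the lower bound for the group mean of RPL39L in MYC-ER, whose 0 h libraries had 0 counts. RPL22L1 and RPL26L1 lie right of 0 in MYC-ER at every time and left of 0 in parental cells at 24 and 48 h. In parental cells at 8 h neither passed the test, with RPL26L1 at -0.01. RPS27L moves from -0.74 at 8 h to 0.29 at 48 h in MYC-ER.

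The 8, 24 and 48 h comparisons of a line share its 0 h libraries, so their values are given side by side and not as repeats. At 24 h in MYC-ER 3 members were higher and 4 lower, where 61.6% of all genes were called, 30.4% higher and 31.2% lower. At 48 h 3 were higher and 2 lower, where 44.1% of all genes were called, 23.4% higher and 20.7% lower. The comparisons between treated times do not use the 0 h libraries. Between 8 and 24 h in MYC-ER, RPS27L and RPL39L rose and RPL22L1 fell by 0.20 (SE 0.07, adjusted p = 0.025), with 55.5% of all genes called. The fall of RPL22L1 was lost without replicate 1 at 8 h, replicate 1 at 24 h or replicate 2 at 24 h (adjusted p up to 0.0887). It was also lost with upper-quartile scaling (-0.09, adjusted p = 0.321) and after removal of the trend in GC content (-0.19, adjusted p = 0.125), and with library totals alone the change had the opposite sign, at 0.0087 (adjusted p = 0.913). Between 24 and 48 h all 8 members changed, with 53.7% of all genes called: RPL22 rose by 0.41, RPS27 by 0.45, RPL39 by 0.35, RPL26 by 0.30 and RPS27L by 0.44, and RPL22L1, RPL39L and RPL26L1 fell. In parental cells RPL22, RPL22L1 and RPL26L1 fell between 8 and 24 h, by 0.20 to 0.28, with 10.9% of all genes called. Leaving out any of 5 of the 6 libraries compared there brought the 3 calls to 0 or 1. Between 24 and 48 h in parental cells 0 members passed edgeR's test, where 13.2% of all genes did; 1 member, RPL22, had an unadjusted p under 0.05, and DESeq2 also called 0.

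Before any 4-OHT, the 3 paralogues that later rose were lower in the MYC-ER cells than in the parental ones. RPL22L1 was lower by 1.54 (SE 0.07, adjusted p = 6.36e-14) in log2, with 65.2 to 68.7 CPM against 169.5 to 228 CPM, and RPL26L1 by 1.11 (SE 0.08, adjusted p = 4.08e-11), with 15.3 to 16.6 CPM against 30.5 to 41.0 CPM. The mean of RPL39L was at least 51.4-fold higher in parental than in MYC-ER cells, against the same floor (edgeR, adjusted p = 3.79e-11). Its parental libraries ranged from 0.617 to 1.21 CPM, a spread that this bound leaves out. RPS27 was the other member called, higher in MYC-ER by 0.52 (SE 0.11, adjusted p = 0.000294). In all 4 members passed, with 64.3% of all genes called, and without parental replicate 3 there were 7. The fibroblast marker sum was highest in these MYC-ER libraries (370 to 377 CPM). Of the 76 other canonical genes 15 were higher and 8 lower (median -0.0043). Without parental replicate 3 these were 31 and 2, without parental replicate 2 8 and 29, and with GC and length trends removed 54 and 1.

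The differences between the lines in these 3 paralogues were smaller at each time of 4-OHT than at 0 h, which is what the interactions given above test for RPL22L1 and RPL26L1 and the one below for RPL39L. At 8 h RPL22L1 was lower in MYC-ER by 0.26 (SE 0.07, adjusted p = 0.00454), RPL26L1 by 0.32 (SE 0.08), RPL39L by 3.41 (SE 0.36) and RPS27L by 0.47 (SE 0.09), and no canonical member passed, with 48.6% of all genes called. At 24 h RPL22L1 was the member called, lower by 0.21 (SE 0.07, adjusted p = 0.0183), with 49.4% of all genes called; without MYC-ER replicate 2 it was not (adjusted p = 0.0607), nor with library totals alone (-0.09, adjusted p = 0.21), and without parental replicate 2 there were 3 members called. At 48 h all 8 members differed, with 56.7% of all genes called. RPL22L1 was then lower in MYC-ER by 0.95 (SE 0.07, adjusted p = 3.1e-10), RPL39L by 1.48 (SE 0.32, adjusted p = 0.000594) and RPL26L1 by 0.31 (SE 0.08, adjusted p = 0.00151, or 0.0848 with upper-quartile scaling), while RPS27L and RPS27 were higher by 0.53 each, RPL39 by 0.44, RPL22 by 0.33 and RPL26 by 0.30. Among the 76 other canonical genes 61 were higher and 0 lower at 48 h (median 0.33).

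Across the 3 interactions 5, 3 and 5 members passed at 8, 24 and 48 h, beside 55.2%, 54.5% and 45% of all genes. RPL22L1, RPL39L and RPL26L1 passed at each time, all with the MYC-ER change above the parental change. Of the canonical members, RPS27 passed at 8 h with -0.43 (SE 0.16, adjusted p = 0.0247), a call lost when any of 5 libraries was left out, and RPL22 at 48 h with 0.32 (SE 0.09, adjusted p = 0.00447). Without parental replicate 3 at 0 h, 8 members passed at 8 h and 5 at 24 h. Of the 76 other canonical genes 1 was higher and 3 lower at 8 h, 17 and 1 at 24 h, and 41 and 0 at 48 h. These counts also rest on parental replicate 3 at 0 h, without which they were 0 and 34, 10 and 10, and 22 and 5. Without parental replicate 2 at 0 h they were 13 and 2, 51 and 1, and 62 and 0. With GC and length trends removed they were 2 and 32, 3 and 30, and 13 and 10. The direction at 24 h thus turned.

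The balance within each pair was followed as the counts of the paralogue per 100 counts of its canonical gene in the same library, which does not depend on scaling between libraries. Transcript lengths are not divided out of this value, so it compares libraries and not the levels of the genes. RPL22L1 stood at 14.6 ± 0.257 (SD, n = 3) per 100 counts of RPL22 at 0 h in MYC-ER, at 39.1 ± 0.62 at 8 h, at 34.6 ± 0.144 at 24 h and at 15.8 ± 0.359 at 48 h. In parental cells the values were 42.5 ± 2.56, 43.0 ± 0.813, 41.6 ± 0.437 and 38.2 ± 1.03. The MYC-ER libraries at 8 h (38.6 to 39.8) overlapped the parental ones at 48 h (37.1 to 39.1), and those at 24 h (34.5 to 34.8) lay below every parental library. The log2 ratio of RPL22L1 to RPL22 differed across times in MYC-ER (range of group means 1.42, exact permutation test, adjusted p = 0.000156) and in parental cells (0.17, exact permutation test, adjusted p = 0.0165), and between the lines (-0.80 averaged over times, exact two-sided permutation test, adjusted over 12 ratio tests p = 5e-05, from a raw p of 1.25e-05, the smallest these permutations can give).

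RPL26L1 stood at 1.57 ± 0.149, 3.47 ± 0.0911, 4.12 ± 0.0856 and 2.50 ± 0.0535 per 100 counts of RPL26 at 0, 8, 24 and 48 h in MYC-ER, and at 3.85 ± 0.0948, 4.52 ± 0.0781, 4.27 ± 0.041 and 3.82 ± 0.0424 in parental cells. The MYC-ER value at 24 h lay between the parental values at 0 and 24 h. Its log2 ratio differed across times in MYC-ER (range 1.39, exact permutation test, adjusted p = 0.000156), in parental cells (range 0.24, adjusted p = 0.00089, exact permutation test) and between the lines (-0.59, exact permutation test, adjusted p = 5e-05). RPL39L stood at 0, 0.0212, 0.103 and 0.0391 per 100 counts of RPL39 in MYC-ER and at 0.188, 0.223, 0.187 and 0.147 in parental cells. Its ratio differed across times in MYC-ER (exact permutation test, adjusted p = 0.00039) and between the lines (exact permutation test, adjusted p = 5e-05), and did not pass across times in parental cells (exact permutation test, adjusted p = 0.13); sizes are not given because of the counts of 0.

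The RPS27 pair moved on another schedule. RPS27L stood at 3.48 ± 0.0853 and 3.35 ± 0.307 per 100 counts of RPS27 at 0 and 8 h in MYC-ER, both genes having fallen at 8 h, and at 5.73 ± 0.228 and 5.68 ± 0.0504 at 24 and 48 h. The ratio thus stepped up between 8 and 24 h and stayed up at 48 h, when the other 3 pairs had turned back. It differed across times in MYC-ER (range 0.78, exact permutation test, adjusted p = 0.00506). In parental cells, where it was 4.73, 4.95, 5.60 and 5.76, it did not pass (exact permutation test, adjusted p = 0.378). Between the lines it differed by -0.24, averaged over times as in the other pairs (exact permutation test, adjusted p = 0.0172). The lines were apart at 0 and 8 h and their libraries overlapped at 24 and 48 h. With GC and length trends removed this call was lost.

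**Figure D4:**
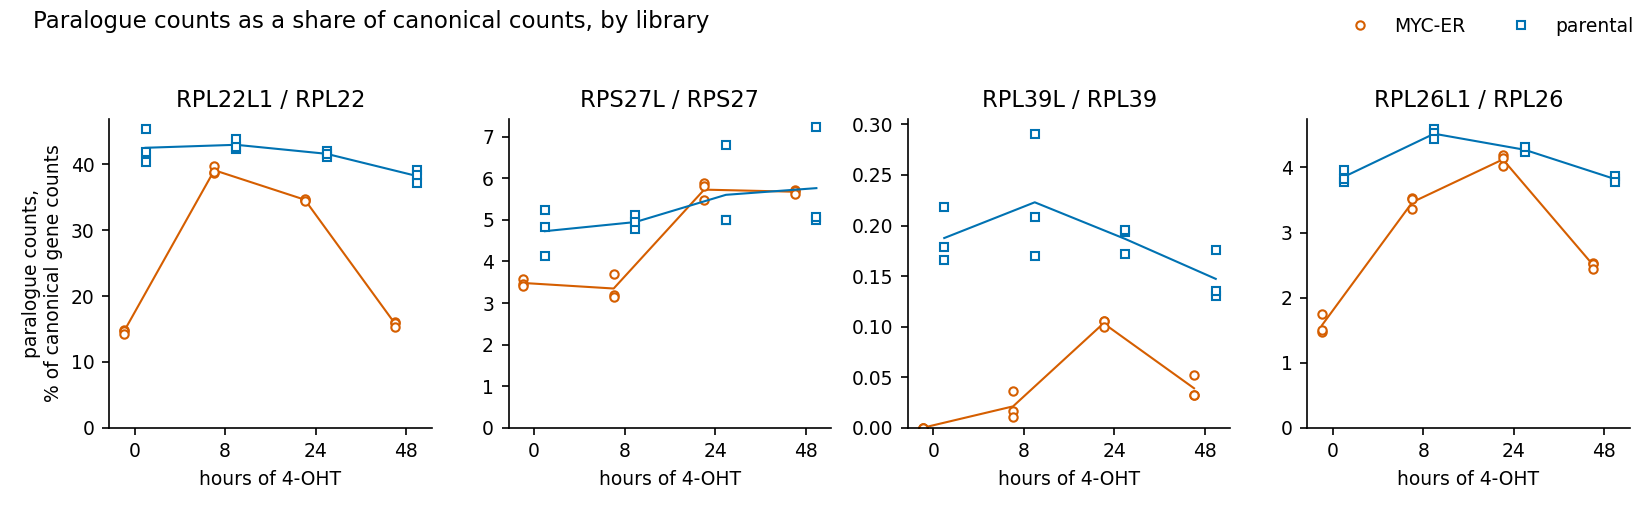
Counts of the paralogue as a percentage of the counts of its canonical gene in the same library (y axis, linear, from 0) against hours of 4-OHT (x axis), with each library as a point and lines through the group means, MYC-ER as circles and parental as squares. For RPL22L1 and RPL26L1 the MYC-ER points rise at 8 and 24 h toward the parental points and fall at 48 h, and for RPS27L they step from about 3.35 at 8 h to 5.73 at 24 h.

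Levels of different genes were compared only per kilobase of transcript, with the shortest and the longest annotated coding transcript of each gene, since the transcripts in use are not known. By either length, the level per kilobase of RPS27 was above that of RPS27L, RPL39 above RPL39L and RPL26 above RPL26L1 in all 8 groups. The difference was at least 25.7-fold, 732-fold and 15-fold in these pairs. RPL22 and RPL22L1 were closer. At 0 h in parental cells the mean was 221 to 585 CPM per kilobase for RPL22 and 89.5 to 388 for RPL22L1, and at 0 h in MYC-ER it was 222 to 588 and 30.8 to 133. The order of this pair was settled for any length in 2 of the 8 groups only.

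Across the 24 libraries, the canonical members were most like other ribosomal protein genes. By Pearson correlation of log2 CPM among 9651 genes, the nearest to RPL39 were RPL37A (0.98), RPL36A (0.97) and RPL31 (0.97), to RPL26 RPL31 (0.97), RPS13 (0.96) and RPL37A (0.96), to RPS27 RPL31, RPS18 and RPLP1 (each 0.96), and to RPL22 RPS24 (0.96), RPS27A (0.96) and ZNF428 (0.95). The nearest to RPL22L1 were TXNDC17 (0.99), GOT2 (0.98) and PSMA7 (0.98), with a thioredoxin-like protein, a mitochondrial aminotransferase and a proteasome subunit as their products. The nearest to RPL26L1 were TRMT112, BANF1 and NDUFV2 (0.98, 0.97 and 0.97), and to RPL39L TSPAN1, MRC2 and CDC20 (0.98, 0.97 and 0.97). RPS27L was nearest to AMZ2 (0.95), ATP5IF1 (0.95) and PIDD1 (0.92). Many genes were nearly as close: 435 correlated above 0.9 with RPL22L1, 180 with RPL26L1, 150 with RPL39L and 16 with RPS27L. For RPL22, RPS27, RPL39 and RPL26 there were 38, 29, 33 and 36. Among the members themselves RPL22L1 and RPL26L1 correlated at 0.93, the canonical genes at 0.81 to 0.96 with each other, and RPL22 with RPL22L1 at -0.41. These values describe 24 libraries in 8 groups, and libraries of a group share line and treatment.

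The start of transcription is shown because ribosomal protein genes are known to begin within a run of pyrimidines, the feature through which their translation is regulated. The windows below hold 15 bases before and 15 from the RefSeq start (GRCh38.p14), 5′ to 3′ on the strand of the gene. Capitals mark the longest run of C and T where it has at least 6 bases and lies within 20 bases of the start. The run of RPL39, of 22 bases, goes on past the end of its window, so its capitals show only a part.
RPL22 (chr1:6199581-6199610, minus strand): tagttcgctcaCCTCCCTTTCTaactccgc
RPL22L1 (chr3:170870181-170870210, minus strand): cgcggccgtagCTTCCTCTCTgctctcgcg
RPS27 (chr1:153990747-153990776, plus strand): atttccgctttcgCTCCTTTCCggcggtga
RPS27L (chr15:63157463-63157492, minus strand): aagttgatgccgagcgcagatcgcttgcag
RPL39 (chrX:119791616-119791645, minus strand): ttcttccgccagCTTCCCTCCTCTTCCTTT
RPL26 (chr17:8383179-8383208, minus strand): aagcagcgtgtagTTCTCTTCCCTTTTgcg
RPL26L1 (chr5:172958714-172958743, plus strand): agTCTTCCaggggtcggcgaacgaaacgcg

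Promoters of 7 members were found in the table, which had no entry for RPL39L, and RPL26L1 had a pair of starts. The longest run within 20 bases of the start was 22 bases in RPL39, 14 in RPL26, 11 in RPL22, 10 in RPL22L1 and 9 in RPS27, against 3 in RPS27L and 6 and 3 at the starts of RPL26L1. Over all 27305 genes of the table the median was 5, and 20.9% had a run of 8 or more, while the median of 60 other canonical ribosomal protein genes was 12 and 90% had such a run. RPL22L1, which rose in MYC-ER while the canonical genes fell, thus shares the run with them. The letters CACGTG, the E-box to which MYC is known to bind, were searched on both strands from 250 bases before to 50 after the start. They were absent from the windows of all 7 members, and present in 8.77% of all genes of the table and in 6.67% of the other canonical ribosomal protein genes (4 of 60).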

How the data were processed

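The table the authors deposited gives raw counts for each gene from poly(A)-selected, strand-specific libraries of 24 cultures sequenced as paired reads of 150 bases. Trimmomatic 0.39, STAR, StringTie 2.1.3b and the build GRCh38 are named in the submitters' processing notes, and how the authors made the counts from these tools, whether by strand, and how they treated reads matching several genes are not given in the sources used here. If the counts were derived from coverage, as tables of this layout often are, the 3-count floors are approximate; floors cover counting error only. Identifiers were matched to symbols for 60340 of 60668 rows. The members and gene lists were chosen with earlier results of these data known.

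After filterByExpr (22158 genes) and TMM scaling, a model with a mean for each of the 8 groups was fitted to all 24 libraries in edgeR 4.0.16 under R 4.3.3. For each of 17 contrasts the two-sided quasi-likelihood test was adjusted by Benjamini-Hochberg over all genes tested, and an adjusted p under 0.05 was called. The biological coefficient of variation shared by all genes was 0.151. CPM uses TMM-scaled totals, log2 CPM and log2 ratios a prior count of 2. Ratios were tested with exact permutation tests over libraries (Python 3.11.15), adjusted over 12 tests: 369600 assignments within a line, one-sided for the sum of squares between times, and 160000 between lines within times, two-sided. Counts of replicates differed by more than sampling noise in all 24 replicate pairs (chi-square per degree of freedom 8.45 to 261). Whether replicates were separate cultures in more than their well is not stated, so p-values measure the spread between these samples, which may be technical; 3 libraries were pooled per lane, and which ones is not stated. Named genes are the members in every contrast, the 3 genes nearest each member in correlation (tested, with a symbol, a mean of at least 10 CPM, not ribosomal protein pseudogenes), and the extremes of the other lists. Alternatives were DESeq2 1.42.0 (Wald test and size factors), other scalings and filters, and trends in GC content and length removed. A replicate block, only the groups compared, pseudogene rows added, and each library left out were further alternatives. The trends were fitted by lowess smoothing in R (span 0.3, values for 98% of genes tested). The tests were tested on simulated data.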

Additional observations from a re-analysis of the deposited data

Results flagged for a closer look

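The MYC-ER change from 0 h differed from the parental change for 13 combinations of member and time, by the line by time interaction (edgeR quasi-likelihood test, MYC-ER change minus parental change, log2). These were 5, 3 and 5 of the 8 members at 8, 24 and 48 h, where 55.2%, 54.5% and 45% of all genes were called. At 8 h the interaction was 1.28 for RPL22L1, 0.80 for RPL26L1, -0.43 for RPS27 and -0.58 for RPS27L, and RPL39L passed with an adjusted p of 3.05e-06. At 24 h it was 1.33 for RPL22L1 and 1.17 for RPL26L1, and RPL39L passed with an adjusted p of 3.68e-09. At 48 h it was 0.32 for RPL22, 0.59 for RPL22L1, 0.42 for RPS27L and 0.80 for RPL26L1, and RPL39L passed with an adjusted p of 6.89e-08. The size for RPL39L is not given because its MYC-ER 0 h libraries had 0 counts. All 13 values rest on the same 0 h libraries of each line. Of the 13, 9 belong to RPL22L1, RPL39L and RPL26L1, which had their lower 0 h levels in the MYC-ER libraries.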

How the results depend on the processing

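Of 1478 member changes recomputed under other settings 1349 kept their side of the threshold, and of 960 recomputed without 1 library 889 did. Those called also kept their direction, which was not compared where neither value was called. In MYC-ER the calls at 8 h against 0 h and at 48 h against 24 h held for all 8 members without any library and under every setting that gave a value. RPL39L had none with at least 10 counts in every library, nor, at 8 h, on only the groups compared. Scaling by library size alone moved the median of all genes by 0.21 in MYC-ER from 8 to 24 h, where 67.8% of calls were then higher, not 51.2%; at 48 h against 0 h it moved that median by 0.16, with 73.8% of calls higher, not 53%. From 8 to 24 h RPL22 was then 0.18 (adjusted p = 0.00253) and RPL22L1 0.0087 (adjusted p = 0.913). That scaling gave 1 member called in parental cells from 24 to 48 h, 6 between the lines at 24 h and 8 in the interaction at 8 h. Between the lines at 24 h, where 1 was called, DESeq2 size factors, DESeq2's Wald test, at least 10 counts in every library and GC and length trends removed gave 2 each, and upper-quartile scaling and a fit on only the groups compared 3 each. With GC and length trends removed, with and without the replicate block, 6 members were called in MYC-ER from 8 to 24 h, 5 in parental cells at 8 h (also with the GC trend alone), 7 between the lines at 0 h and at 8 h, and 5 in the interaction at 24 h. Only the groups compared gave 5 in MYC-ER and 5 in parental cells from 8 to 24 h, and 0 in parental cells at 8 h and at 48 h against 0 h. With no filter 1 was called in parental cells from 8 to 24 h. Of the 76 other canonical ribosomal protein genes 40 were called in MYC-ER at 48 h against 0 h on only the groups compared, where 8 were as reported.

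Leaving out 1 library gave 0 to 5 members called in parental cells at 8 h, 0 to 2 from 8 to 24 h, 3 to 4 in MYC-ER at 48 h, 4 to 7 between the lines at 0 h, 0 to 3 at 24 h, and 4 to 8 and 3 to 5 in the interactions at 8 and 24 h. Without parental replicate 3 at 0 h the interaction of RPS27 at 48 h was -0.25 (adjusted p = 0.0398), and without any other library up to 0.11. The log2 ratio of RPS27L to RPS27 between lines was -0.23 (exact permutation test, adjusted p = 0.0595) with GC and length trends removed. Without 1 library the range of the log2 ratio of RPL39L to RPL39 across parental times lay between 0.35 and 0.74 (adjusted p = 0.0226, exact permutation test, without replicate 2 at 8 h) and that of RPL22L1 to RPL22 between 0.15 (adjusted p = 0.0669, exact permutation test, without replicate 1 at 48 h) and 0.19. Of the ratio values 47 of 48 under other settings and 190 of 192 without 1 library kept their side. The cause was not tested.

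Replicate numbers did not pair the libraries: deviations of same-numbered libraries correlated at -0.00222 on average over 84 pairs (-0.40 to 0.59), and 9 of 24 libraries correlated best with their own number. With the replicate block 5 members were called between the lines at 0 h, not 4, and 4 in the interaction at 24 h, not 3, and the other counts did not move. Depth limits RPL39L, whose highest library had 203 counts.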

Other observations

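Other ribosomal protein paralogues were measured beside these pairs. RPL7L1, a paralogue of RPL7 that is known from ribosome assembly, was at 218 ± 9.01, 333 ± 6.59, 241 ± 7.23 and 170 ± 2.37 CPM (SD, n = 3) after 0, 8, 24 and 48 h in MYC-ER. It rose by 0.61 (SE 0.07, adjusted p = 3.79e-08, edgeR) at 8 h, fell in each later step, and was lower than at 0 h by 0.36 (SE 0.07, adjusted p = 0.000119) at 48 h. Its parental means lay between 214 and 233 CPM, with no change called against 0 h. RPL36AL, the paralogue of RPL36A, was at 99.9 ± 6.46, 160 ± 8.51, 107 ± 4.27 and 109 ± 1.08 CPM in MYC-ER. It rose by 0.68 (SE 0.10, adjusted p = 1.96e-06, edgeR) at 8 h and fell by 0.58 (SE 0.10, adjusted p = 2.58e-05) from 8 to 24 h. Its parental means were 144, 135, 123 and 115 CPM in the order of the times, with a fall of 0.32 (SE 0.10, adjusted p = 0.0104) at 48 h, and at 0 h it was lower in MYC-ER by 0.53 (SE 0.10, adjusted p = 5.81e-05). The interaction at 8 h was 0.50 (SE 0.09, adjusted p = 8.39e-05) for RPL7L1 and 0.77 (SE 0.14, adjusted p = 4.66e-05) for RPL36AL. At 48 h it was -0.35 (SE 0.09, adjusted p = 0.00451) for RPL7L1 and 0.45 (SE 0.14, adjusted p = 0.00955) for RPL36AL. Both genes had their highest MYC-ER mean at 8 h.

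RPL3L, known from heart and skeletal muscle, had 0 to 33 counts in a library, near the floor, and RPL10L had 0 counts in all 24.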
